A study of Mus musculus with 6 samples.

Results

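The genes described here are named for factors of nuclear transport, mRNA 3' end formation or mRNA decay, and not all act on mRNA. They were chosen by symbol, as every gene on the array named for an export receptor, a TREX subunit (*Thoc*), a nucleoporin (*Nup*), an exportin, importin, karyopherin or transportin, a Ran-binding or Ran-activating protein, a cleavage and polyadenylation factor (*Cpsf*, *Cstf*), a poly(A) polymerase or poly(A)-binding protein, a factor of nonsense-mediated decay, the CCR4-NOT complex (*Cnot*), the exosome (*Exosc*) or the decapping machinery (*Dcp*, *Edc*). This gave 59 genes with 102 alternative RNA processing events, of 7788 genes with 13002 events on the whole array. Intensities were listed for 101 of the 102 events, and a complex event of *Cpsf4* at chr5:145928152-145942867 had none. No gene named this way had an event inside the congenic interval of chromosome 19, and *Nxf1* itself had no event on the array.

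Brain total RNA came from 6 mice of a B6.CAST congenic line, 3 homozygous for the *Nxf1* B6 allele and 3 homozygous for the *Nxf1* CAST allele, and was hybridized to Affymetrix MJAY arrays, on which probes to exons and exon junctions report the alternative forms of a transcript separately. All 6 animals shared the C57BL/6J background, and the *Nxf1* CAST animals also carried the surrounding CAST segment of chromosome 19, so the allele and its linked segment cannot be told apart. They were littermates of the same sex paired across genotypes, 2 pairs female and 1 male. Pair 1 was 46 days old in both genotypes, pair 3 was 23 days old in both, and in pair 2 the *Nxf1* B6 mouse was 22 days old and the *Nxf1* CAST mouse 23 days old. The deposited table gave, for each path of an event, an intensity of the exclusion path and of the inclusion path, already summarized over the arrays, for each of the sets A and B. It does not name the sets by genotype. Set B was likely *Nxf1* CAST, because the table defines its own score as mutant over wild type and that score runs as set B over set A. With 1 pooled intensity a set, no error, test or replicate check could be computed for any value below, and the number of arrays limits the precision. The table's own scores and q-values are comparisons made by its authors and were not used.

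The measure used throughout is the log2 of the exclusion to inclusion ratio in set B over the same ratio in set A. A value above 0 means relatively more exclusion in set B, and 0.5 on this scale, in either direction, was the fold used by the study. The study also set a q-value limit, which was not applied here, so an event past the fold need not meet the study's call. Exclusion and inclusion were read by different probe sets, so their ratio within a set is not a share of transcripts. For a cassette exon the exclusion path skips the segment. For alternative starts, alternative ends and complex events, which form the table counts as exclusion is not given in the sources used here. Over the whole array the intensities ran from 43 to 13185. Of the marker lists, astrocyte genes reached 1621 to 10330 on the brighter path of their events and oligodendrocyte genes 977 to 11314, against 126 to 356 for 2 genes of heart, muscle or liver. Neuronal genes (4 of 6 listed were on the array) spanned 132 to 12087, microglia were read by 1 gene at 458 and 459, and neither blood gene was on the array. The median change in summed intensity between the sets lay between -0.08 and 0.08 on the log2 scale in each marker list.

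An mRNA leaves the nucleus bound to the heterodimer of Nxf1 and its small partner Nxt1, which is loaded onto processed transcripts by the TREX complex and passes through the nuclear pore without a Ran gradient. Most proteins and other RNAs cross the pore on importins and exportins, whose cargo binding is set by the GTPase Ran. Before export the 3' end is cleaved and polyadenylated, and afterwards poly(A)-binding proteins, deadenylases, decapping enzymes, the exosome and nonsense-mediated decay set how long the mRNA lasts. The comparison is of transcript forms of the Nxf1 partner, and of the machinery before and after it, between brains with either *Nxf1* allele.

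For a cassette exon of *Xpo4* (155 nucleotides) the study designed RT-PCR primers on either side of the alternative segment, and they are shown because they locate a measured choice in the transcript. Each is printed 5' to 3':
Xpo4 primer 1: tgcagtttgcaggcatattt
Xpo4 primer 2: agagaacccactctcggaca
The pair was matched to the array event because the difference between its product lengths equals the length of the segment in the name of the event. On the array this cassette was not past the fold.

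Of the 101 member events, 8 were past 0.5 in either direction, or 7.92%, beside 7.34% of the 12948 events of the array. Relatively more exclusion in set B was found in 6 of these, beside 4.52% of all events with a sign, and relatively less in 2, beside 2.72%. The 8 events lay in 8 of the 59 genes, and 11.7% of all genes on the array had such an event. The events with more exclusion were in *Pabpc4*, *Cnot10*, *Ranbp9*, *Ipo7*, *Nxt1* and *Rangap1*, and those with less were in *Ipo11* and *Cpsf6*. The largest, *Pabpc4*, ranked 72 among all events by absolute size, followed by *Ipo11* at rank 116 and *Cpsf6* at rank 482. Each of these member counts was near its background. The role groups below hold too few events for their counts to be read against these shares.

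The median absolute log2 ratio was 0.17 in the member events, with quartiles of 0.086 and 0.268, and 0.18 in all events, with quartiles of 0.084 and 0.308. Of the 99 member events with a sign, 59 were above 0 (59.6%), beside 55.3% of all events, and the median signed ratio was 0.08 beside 0.03. A further 14 member events lay between 0.3 and 0.5. The 3 events just outside the fold were *Exosc9* at 0.47, *Nup107* at 0.42 and *Nup54* at 0.40, and the 3 just inside were *Ipo7*, *Nxt1* and *Rangap1*, each at 0.54. Positions below follow the deposited table, whose genome build is not given in the sources used here.

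**Figure D1:**
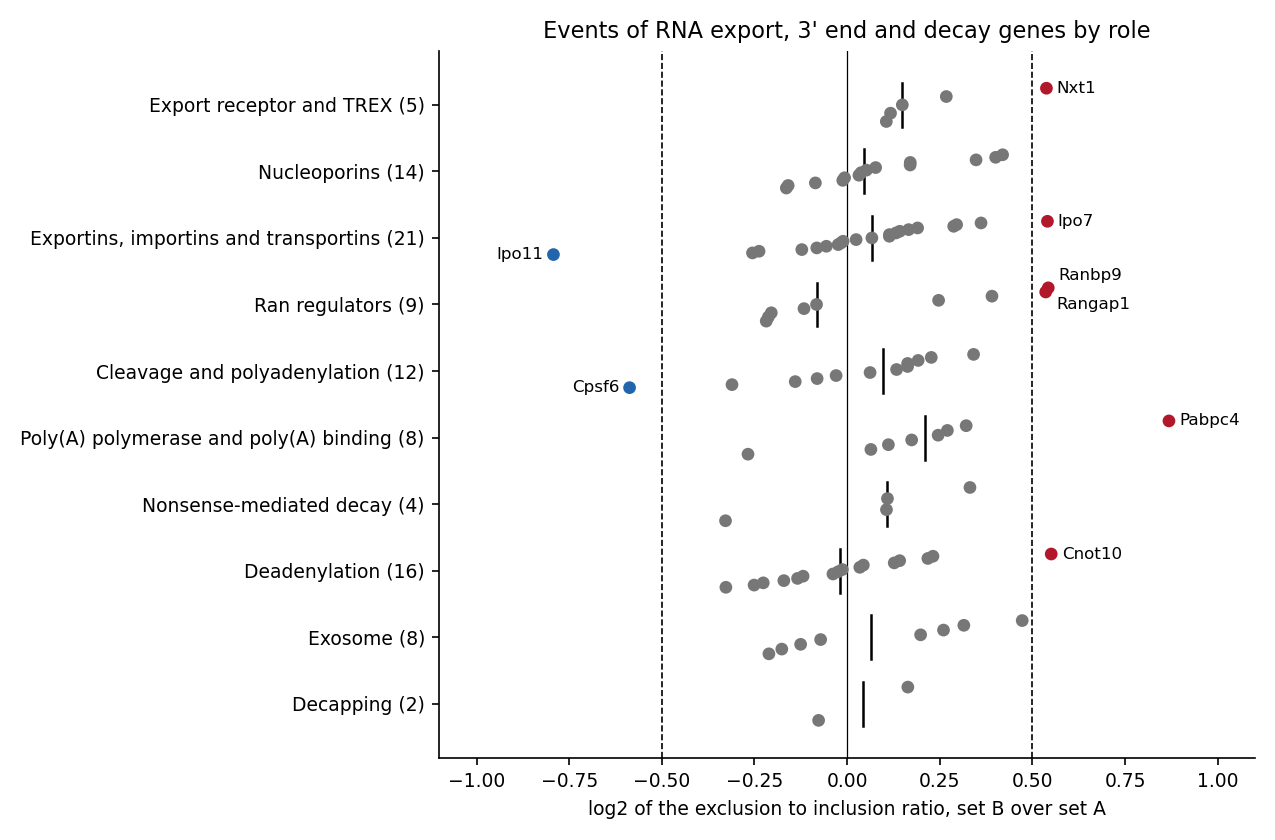
Each point is 1 event, at the log2 of its exclusion to inclusion ratio in set B over set A, grouped by role of the gene, with the number of events with a sign in parentheses. Vertical bars are group medians and dashed lines mark 0.5 in either direction: 6 events lie to the right and 2 to the left, and nucleoporins, nonsense-mediated decay, exosome and decapping genes have none outside.

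*Nxt1* encodes the heterodimer partner of Nxf1 and was the one *Nxf* or *Nxt* gene with an event on the array. Its cassette exon (135 nucleotides, chr2:148498551-148501038, plus strand) had an exclusion intensity of 148 in set A and 191 in set B. Inclusion read 126 and 112 in sets A and B. The exclusion path was thus brighter and the inclusion path dimmer in set B, which gave a log2 ratio of 0.54, or 1.45-fold. All 4 intensities were below 200, in the dimmer range of the array. The 4 *Thoc* genes on the array code for subunits of the THO core of TREX, which couples transcription and splicing to export. Their 4 events with a sign were all above 0, beside 55.3% of all such events, and none was past the fold. They read 0.11 in *Thoc5*, 0.12 in *Thoc1*, 0.15 in *Thoc2* and 0.27 at the alternative end of *Thoc7*. Such a count is too small to show a shared direction, and for *Thoc1* and the *Thoc7* end the exclusion form is not given. A second *Thoc7* event had no exclusion path, so it was given no sign, and its 3 paths read 0.25, 0.25 and 0.02.

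Nucleoporins build the pore through which the Nxf1 heterodimer passes. None of the 14 events in 9 *Nup* genes was past the fold, 9 were above 0 and 5 below, and the median absolute ratio was 0.12. The highest value was in *Nup107*, a subunit of the Y-shaped scaffold of the pore. Its complex event (chr10:117227091-117229680, minus strand) read 337 in set A and 481 in set B for exclusion, and 492 and 525 for inclusion, a log2 ratio of 0.42. Both paths were brighter in set B, exclusion more so. *Nup54*, which lines the central channel, had a cassette exon (162 nucleotides) at 0.40, with exclusion at 491 and 646 in sets A and B and inclusion almost level at 581 and 579. *Nup98*, whose transcript codes for a mobile nucleoporin and, in a longer form, for the scaffold protein Nup96, had 5 events. From 5' to 3' they read -0.16 at the alternative start, 0.35 at a complex event, 0.17 at a cassette exon, and 0.03 and -0.01 at 2 alternative ends. The remaining 7 nucleoporin events ran from -0.16 at the alternative start of *Nup93* to 0.17 at that of *Nup37*.

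Transport receptors of the importin β family and the importin α adaptors carry proteins and non-messenger RNAs through the pore. The array held 21 events in 12 such genes, and 12 of the events were above 0. Past the fold were 1 upward and 1 downward, beside 4.52% and 2.72% of all events with a sign. The downward event was in *Ipo11*, an import receptor. Its cassette exon (215 nucleotides, chr13:107613131-107632168, minus strand) read 144 in set A and 122 in set B for exclusion, and 306 and 449 for inclusion. The segment was thus relatively more included in set B, with a log2 ratio of -0.79, or 1.73-fold, and its inclusion path was the one inclusion path of the 8 events that was brighter in set B, by 0.55 on the log2 scale. The other 2 *Ipo11* events did not share this size, with 0.11 at the alternative start and -0.08 at an alternative end whose span overlaps the cassette exon. *Ipo7* codes for an import receptor of ribosomal proteins and histone H1. Its complex event (chr7:117170662-117186342, plus strand) read 231 in set A and 294 in set B for exclusion, and 808 and 707 for inclusion, a log2 ratio of 0.54.

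*Ipo13*, an importin that also exports cargo, had cassette exons at -0.12 and 0.36 and an alternative 3' splice site at 0.13. *Ipo4*, another importer of histones and ribosomal proteins, had cassette exons at 0.29 and 0.30 on either side of an alternative 3' splice site at -0.26. In both genes neighbouring events therefore had opposite signs. *Xpo4*, an exportin with some import cargoes, had the cassette exon whose primers are printed above (chr14:58262060-58267255). It read 149 in set A and 118 in set B for exclusion, and 166 and 155 for inclusion, a log2 ratio of -0.24 with both paths dimmer in set B, and its alternative end read 0.07. *Xpo1*, the exportin for leucine-rich export signals, read 0.17, and the *Kpna1* (importin α), *Ipo9*, *Tnpo1*, *Tnpo2* and *Tnpo3* events lay between -0.06 and 0.14. *Xpo6*, the exportin of actin, read 0.19 and -0.01.

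**Figure D2:**
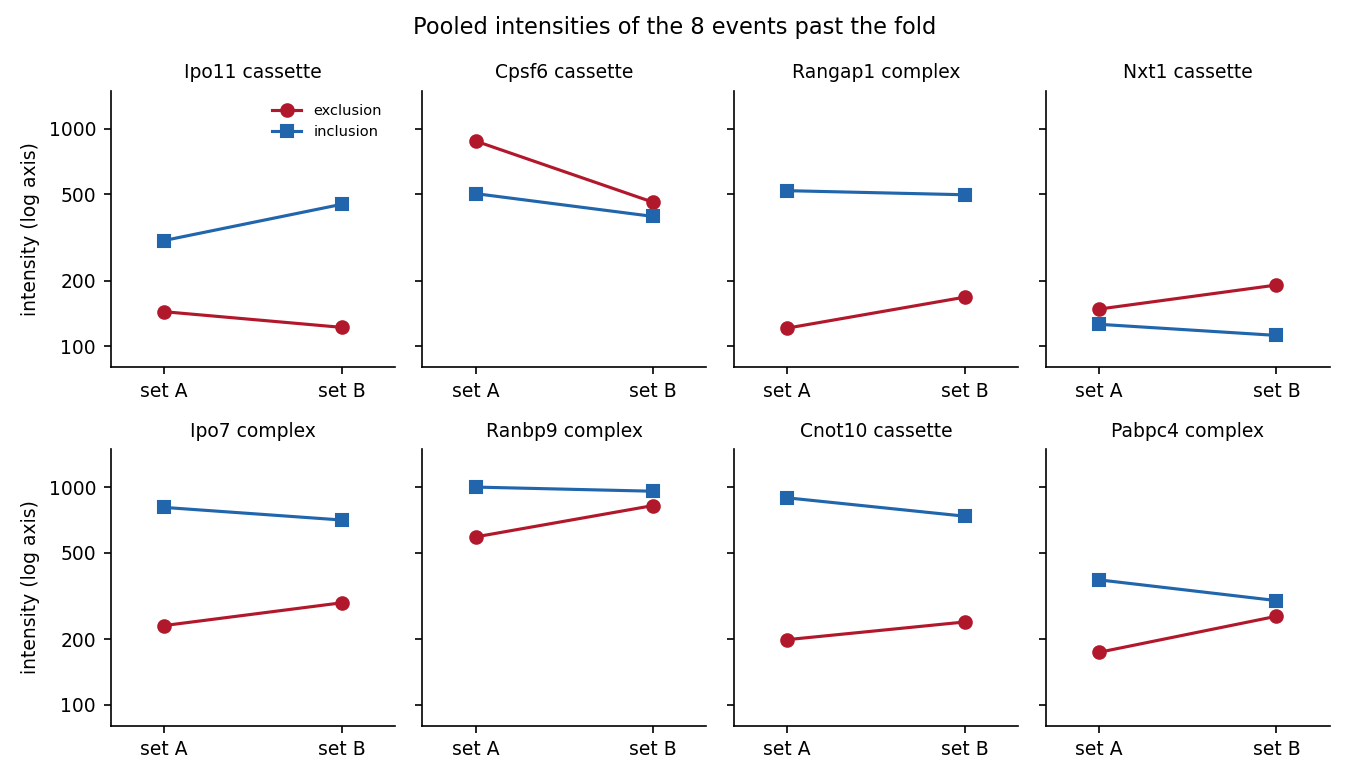
Pooled exclusion (red circles) and inclusion (blue squares) intensities in set A and set B, on a log axis, for the 8 events past the fold, in order of log2 ratio from *Ipo11* at -0.79 to *Pabpc4* at 0.87. Lines join the sets and slope in opposite directions in 7 events, whereas in *Cpsf6* both paths were lower in set B, with exclusion at 878 and 459; 1 value a set leaves no error bar.

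Genes named for binding or regulating Ran held 9 events in 5 genes, and 2 were past the fold, beside 7.34% of all events. *Rangap1* activates GTP hydrolysis by Ran on the cytoplasmic side of the pore. Its complex event (chr15:81555062-81560141, minus strand) read 121 in set A and 168 in set B for exclusion, and 519 and 497 for inclusion, a log2 ratio of 0.54. The difference was mostly in the dimmer exclusion path. *Ranbp9*, which despite its name is best known as a scaffold of the CTLH ubiquitin ligase, had a complex event (chr13:43498213-43576342, minus strand) with 591 in set A and 824 in set B for exclusion, and 1002 and 959 for inclusion. Its log2 ratio was also 0.54, at the brightest exclusion level in set B of the 8 events. *Ranbp3*, a cofactor of nuclear export by Xpo1, had 4 events that alternated in sign from 5' to 3', at 0.25, -0.20 and 0.39 for cassette exons and -0.21 for a retained intron. The first 2 of these cassettes share their upstream boundary, so they are not separate measurements of the gene. *Ranbp3l* read -0.12, and *Ranbp17*, an importin β family member, -0.22 and -0.08.

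The cleavage and polyadenylation genes had 12 events with values in 7 genes, 7 above 0 and 5 below. *Cpsf6* codes for the large subunit of cleavage factor I, which binds upstream of the poly(A) signal and bears on the choice of poly(A) site. Its cassette exon (111 nucleotides, chr10:116798396-116799090, minus strand) read 878 in set A and 459 in set B for exclusion, and 503 and 395 for inclusion. Both paths were dimmer in set B, exclusion more so, which gave a log2 ratio of -0.59 and a summed intensity change of -0.69, the lowest of all member events. An alternative 3' splice site of the same gene read 0.16, at intensities of 170 and 146 for exclusion and 103 and 79 for inclusion. Both of its paths were also dimmer in set B, with a summed intensity change of -0.28. The next largest values of the group were 0.34 at a retained intron of *Cstf3*, which holds the cleavage stimulation factor together, and -0.31 at an alternative 3' splice site of *Cpsf1*, which codes for the largest subunit of the cleavage and polyadenylation specificity factor. The remaining events lay between -0.14 and 0.23, among them *Cpsf3l*, which RefSeq also lists as *Ints11*, the endonuclease of the Integrator complex, at -0.03.

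Poly(A) polymerases and poly(A)-binding proteins had 8 events in 4 genes, 7 of them above 0, beside 55.3% of all events with a sign. Their median absolute ratio, 0.26, was the largest of the 10 role groups, beside 0.18 in all events. Ran regulators and nonsense-mediated decay genes were each at 0.22, and groups this small cannot be ranked with confidence. *Pabpc4* codes for a cytoplasmic poly(A)-binding protein. Its complex event (chr4:122972496-122973013, plus strand) read 174 in set A and 255 in set B for exclusion, and 375 and 301 for inclusion. Exclusion was brighter and inclusion dimmer in set B, with a log2 ratio of 0.87, or 1.83-fold, the largest of all member events. Upstream of it the alternative start read -0.27 and downstream an alternative 5' splice site read 0.27, so the ratios of the gene differed in sign. Which form counts as exclusion is not given for the start and the complex event, so these signs cannot be compared as directions. *Papola*, the main nuclear poly(A) polymerase, was the one gene with 3 or more events whose events were all of the same sign. From 5' to 3' its cassette exon read 0.32, its alternative end 0.25 and its retained intron 0.17. For the alternative end the form counted as exclusion is not given, so the shared sign need not be a shared direction. The inclusion path was dimmer in set B in all 3, at 783 and 752, 663 and 563, and 2658 and 2508 in sets A and B. *Papolg* read 0.06, and a retained intron of *Pabpn1*, the nuclear poly(A)-binding protein, read 0.11.

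**Figure D3:**
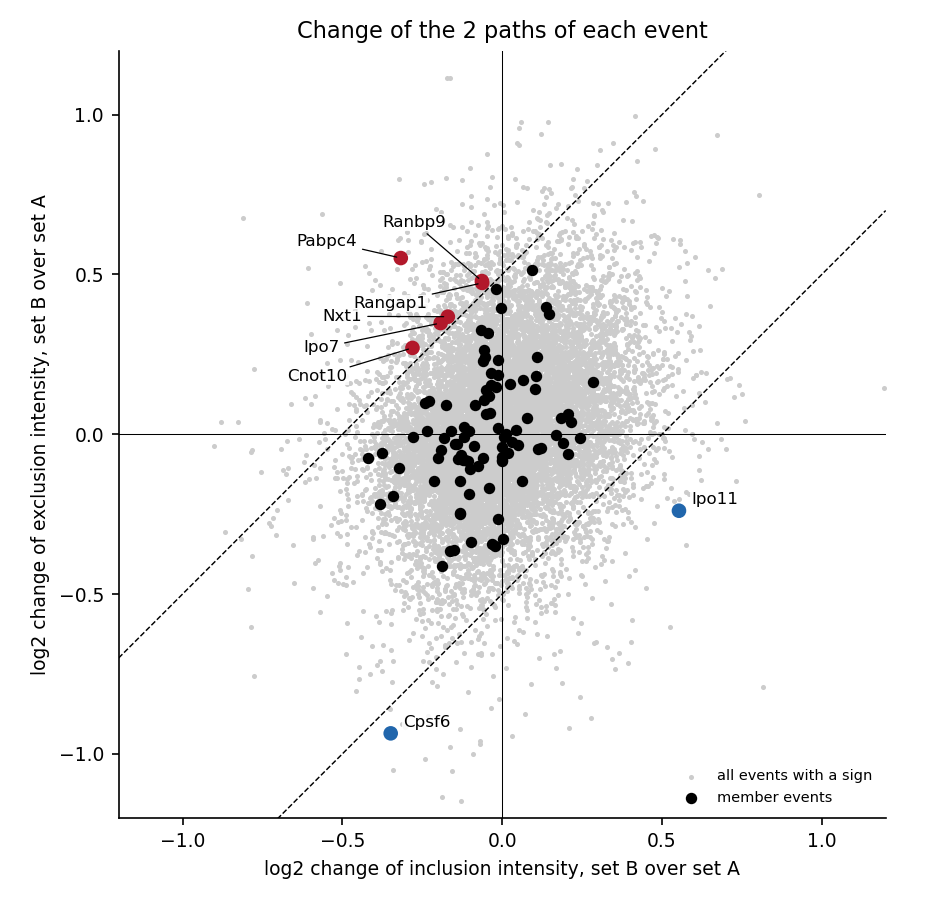
Change of the exclusion intensity (vertical) against change of the inclusion intensity (horizontal), both as log2 of set B over set A, for member events (black; past the fold in red or blue) and all events with a sign (grey); 7 events lie outside the axes and dashed lines mark a log2 ratio of 0.5 in either direction. Of the 8 labelled events 7 lie in the quadrants where the paths differed in opposite directions, and *Cpsf6* lies low on both axes.

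Factors of nonsense-mediated decay, which degrades mRNAs with a premature stop codon, had 1 event in each of 4 genes, and none was past the fold. *Upf1*, the central helicase of the pathway, had an alternative 5' splice site that read 203 in set A and 218 in set B for exclusion, and 116 and 99 for inclusion, a log2 ratio of 0.33. Exclusion was slightly brighter and inclusion dimmer in set B. *Upf2* and *Upf3b*, which link Upf1 to the exon junction complex, read 0.11 each.

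The CCR4-NOT complex shortens poly(A) tails, with Cnot7 and Cnot8 as deadenylases and Cnot1 as the scaffold. It had 17 events in 6 genes, and 1 was past the fold, beside 7.34% of all events. *Cnot10*, a subunit bound to the N-terminal part of Cnot1, had a cassette exon of 36 nucleotides (chr9:114506724-114507822, minus strand) that read 199 in set A and 240 in set B for exclusion, and 894 and 736 for inclusion. Its log2 ratio was 0.55, or 1.46-fold. The introns on either side of that exon, measured as retained introns of 872 and 186 nucleotides, read 0.03 and -0.01. The other *Cnot10* events, 5' to 3', were a cassette exon at -0.02, an alternative end at -0.17 and a cassette exon at 0.04.

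*Cnot2*, whose protein forms a module with Cnot3, had 6 events, 5 of them below 0. From 5' to 3' they read 0.14, -0.23, -0.25, -0.04, -0.33 and -0.12. Several of them share boundaries, and the lowest, a cassette exon of 67 nucleotides, rested on an exclusion intensity of 79 in set A and 62 in set B beside an inclusion of 3041 and 2994. Among the remaining genes *Cnot1* read 0.23, *Cnot4*, which codes for a ubiquitin ligase that associates with the complex, 0.22 and 0.13, and *Cnot8* -0.13. *Cnot7* had an event without an exclusion path, so it was given no sign, and its 3 paths read 0.34, -0.37 and 0.15. Both paths were dimmer in set B in 11 of the 16 signed events of the complex, beside 29.6% of all events. Of these, 5 were in *Cnot2*, 4 in *Cnot10* and 2 in *Cnot4*, and events of a gene share exons, whereas in *Cnot1* and *Cnot8* both paths were brighter in set B.

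The exosome degrades RNA from its 3' end. Its 5 genes had 8 events, 4 above 0 and 4 below, and none past the fold. *Exosc9*, a subunit of the barrel, had the largest, a cassette exon (120 nucleotides) that read 108 in set A and 148 in set B for exclusion, with inclusion level at 324 and 320, a log2 ratio of 0.47. *Exosc5*, another subunit of the barrel, was covered by 4 retained introns. Their ratios were lower from each to the next along the transcript, at 0.26, 0.20, -0.07 and -0.18, and so were their exclusion intensities in set A, at 804, 330, 145 and 107. *Exosc1*, which codes for a cap subunit, had an alternative end at 0.32 and *Exosc8* a complex event at -0.21. *Exosc10*, a catalytic subunit in the nucleus, had a cassette exon at -0.13. *Exosc1* lies on chromosome 19, outside the congenic interval. Decapping removes the 5' cap ahead of decay from that end, and its 2 genes read 0.16 in *Dcp1a*, an activator of the decapping enzyme, and -0.08 in *Edc4*, a scaffold of decapping.

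**Figure D4:**
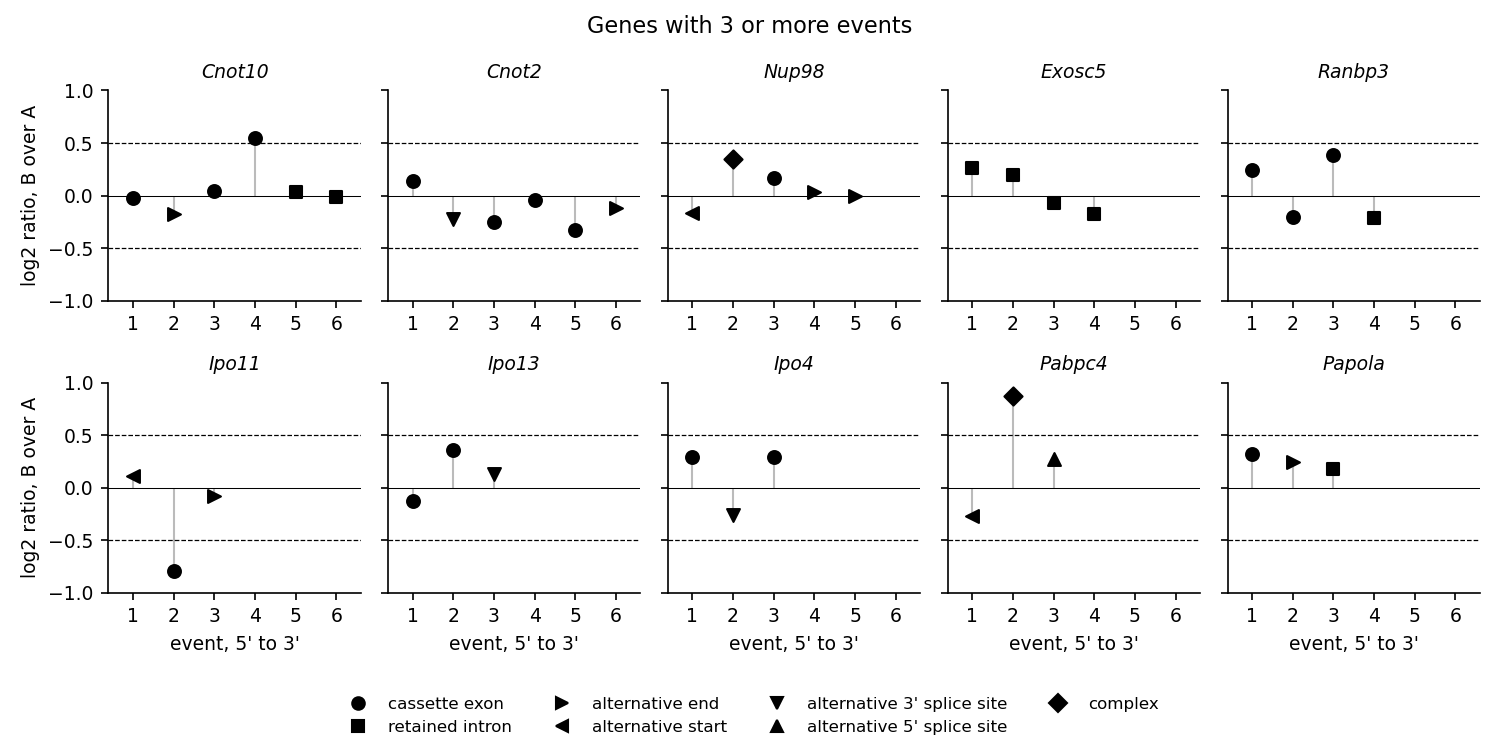
Log2 ratio of set B over set A (vertical) for the 10 member genes with 3 or more events, in 5' to 3' order along the transcript (horizontal), with the marker giving the type of event and dashed lines at 0.5 in either direction. *Cnot10*, *Ipo11* and *Pabpc4* each have 1 event outside the lines, and *Papola* is the gene whose events all lie on the same side of 0.

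Of the 10 member genes with 3 or more events, 9 had events above and below 0 among 40 events in all. The same count was not made for all genes of the array, where 55.3% of events with a sign were above 0. Mixed signs are therefore not shown to be particular to these genes. Another 12 member genes had 2 events and 37 had 1, so that 37 of the 59 genes were measured at 1 place. The 4 genes past the fold that had a second event, *Cnot10*, *Cpsf6*, *Ipo11* and *Pabpc4*, had no other event past it.

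By type of event, 4 of the 12 complex events of the members were past the fold, or 33.3%, beside 8.38% of all complex events on the array. Cassette exons gave the other 4, of 36, or 11.1% beside 8.56%. The groups by type and by length hold too few events for their counts to be read against these shares. Of the complex events, *Ranbp9*, *Ipo7* and *Rangap1* were each at 0.54, just inside the fold. Only the one in *Pabpc4* stayed past a linear fold of 1.5. Complex events combine several choices and their intensities come from more than 1 segment, so these 4 ratios cannot be assigned to an exon. No member event of another type was past the fold, among 17 alternative ends, 12 alternative 3' splice sites, 10 retained introns, 9 alternative starts and 3 alternative 5' splice sites. Past the fold were 3 of the 23 member cassettes whose length is a multiple of 3 (*Nxt1*, *Cpsf6* and *Cnot10*), beside 7.59% of all such cassettes. Of the 13 with another length, 1 was (*Ipo11*), beside 9.55%. A coding exon whose length is a multiple of 3 keeps the reading frame when skipped, but whether these exons are coding was not checked.

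The 2 paths differed between the sets in opposite directions in 45 of the 99 signed member events (45.5%, beside 39.4% of all events). They were both dimmer in set B in 36 (36.4% beside 29.6%) and both brighter in 14 (14.1% beside 29.0%). The members' median change in summed intensity was -0.03 on the log2 scale, against less than 0.01 in size for all events. In the 8 events past the fold 7 had opposite paths, beside 82.0% of all events past it.

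**Figure D5:**
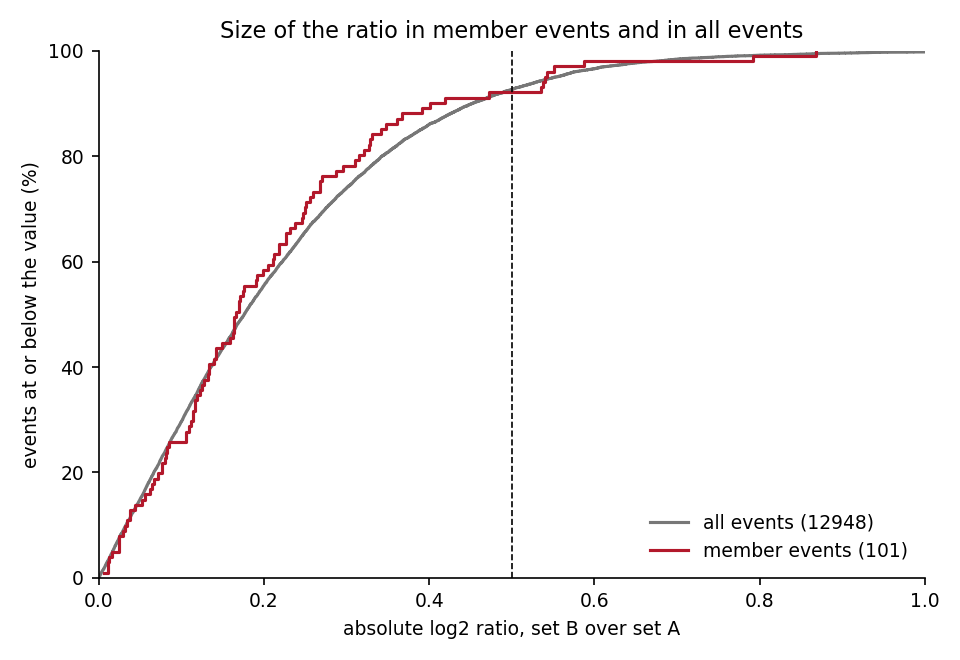
Share of events (vertical, percent) at or below each absolute log2 ratio (horizontal) for the 101 member events (red) and all 12948 events (grey), with a dashed line at 0.5. The curves run close together, with medians of 0.17 and 0.18.

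Genes of the same pathways whose symbols do not carry these names were read from a list of 91 symbols, of which 39 were on the array with 60 events. The list was fixed with earlier results of these data known, that of *Wdr33* among them. Past the fold were 8 of the 60 (13.3%), beside 7.34% of all events on the array. Of these 3 were upward and 5 downward, beside 4.52% and 2.72% of all events with a sign, and the median absolute ratio was 0.19 beside 0.18. The 4 lists below are too short to be read against these shares. Among export factors 1 of 11 events was past it, in *Rae1*, which binds Nup98 (0.52). Among pore and Ran genes it was 1 of 9, in *Senp2*, a SUMO protease of the pore (-0.57), with no intensity above 116. Among 3' end factors it was 3 of 11. *Fip1l1*, which ties the poly(A) polymerase to the cleavage complex, had a cassette exon at 0.61 (exclusion 95 and 159, inclusion 871 and 957 in sets A and B) with its 4 other events at -0.11 to 0.26. *Lsm11*, of histone mRNA processing, had a retained intron at 0.61. *Wdr33*, which binds the poly(A) signal, had a cassette exon at -1.34 (exclusion 148 and 51, inclusion 790 and 689). The exclusion of 51 is near the lowest intensity of the array, 43. A retained intron and an alternative end of *Wdr33* read 0.16 and 0.20. Among decay factors it was 3 of 29, all downward: *Lsm6* of the ring that binds oligoadenylated ends (-0.57), the deadenylase *Parn* (-0.55) and the exosome nuclease *Dis3* (-0.50). Another cassette exon of *Dis3* read 0.26.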

How the data were processed

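Brain RNA of 3 *Nxf1* B6 and 3 *Nxf1* CAST animals was hybridized to 1 MJAY array each, and the submitters' processing notes name Affymetrix Power Tools. The authors deposited 1 table, with exclusion and inclusion intensities of each path as whole numbers on a linear scale, pooled over the arrays of a set. Array normalization, background correction and genome build are not given in the sources used here. The table also holds the authors' own comparisons, a log2 separation score of each path with its q-value, in a paired and a standard form. Neither was used, except that the sign of the score showed which set is over which. Its positions overlapped the GRCm38 span for 6 of 58 genes matched to RefSeq (1 symbol was not matched), so they follow another build.

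For each path the log2 ratio was computed from the 4 intensities of the paired comparison. An event took the ratio of its exclusion path. An event without one took the largest absolute ratio of its paths, with no sign. Whole-number rounding bounds a member's ratio to within 0.037, with a median of 0.0103. Symbols were grouped into 10 roles. Named were all member events past 0.5, the largest of each role, the 3 just outside 0.5, genes with 3 or more events and other pathway genes past 0.5; further members were named after their values were seen, to complete each role. The members and all lists were chosen with earlier results of these data known. The computation of ratios and calls was checked on simulated intensities without noise, which tests the arithmetic and not how reliable a call is. Alternatives were other folds, intensity minimums, an added constant, path summaries, centring, genes in place of events, and types of event left out. Python 3.11.15, numpy 2.4.6, pandas 2.3.3 and matplotlib 3.10.9 were used. The primer sequences are those of the study's RT-PCR assays, whose measurements were not analysed here. The values of 1 member event and 1 primer pair are not reported here.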

Additional observations from a re-analysis of the deposited data

How the results depend on the processing

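The 8 member events past the fold became 3 (3.78% of all events were past it) at a linear fold over 1.5 and 0 at a log2 ratio over 1, which 0.224% of all events passed. With all 4 intensities at or above 200 there were 3 of 45 (5.39% of all), and with 50 added to each intensity 4 of 101 (3.18% of all), *Cnot10* then at 0.48, *Ipo7* at 0.47, *Rangap1* at 0.41 and *Nxt1* at 0.40. Without complex events, an alternative chosen after seeing the data, there were 4 of 87 (7.11% of all). The count stayed at 8 under a linear fold of 1.4, with the mean or largest ratio of the paths, with a minimum intensity of 100, centred on the median of all events, over genes, and without retained introns. Over these settings the share of events above 0 ranged from 56.3% to 67.4% and the median absolute ratio from 0.13 to 0.22. None of the 13 named events that were run one by one changed sign, of which 12 had all intensities at or above 100 and 6 at or above 200. Most settings could not change a sign, since minimum intensities only removed events and the path summaries returned the same ratios for these events. Centring moved each ratio by 0.03, less than the smallest of them, 0.16 in *Dcp1a*. The other named events were not run one by one. No paired analysis was possible because the intensities are 1 pooled value per set, with none per array or pair, and the authors' paired scores and q-values were not used. Exclusion intensities below 200, as in 5 of the 8 events in set A, limit what a fold can show.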
